A study of Mus musculus with 3 samples.

Results

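The patterning transcription factors outside the Hox clusters comprised 70 of the 21782 genes in the RNA-seq count table, chosen by symbol alone as the numbered members of 14 families (Tbx, Pax, Meis, Pbx, Irx, Dlx, Msx, Lhx, Alx, Prrx, Barx, Pitx, Emx and the sine oculis relatives such as Six2 and Six4). The libraries were made from polyA+ RNA of asynchronously growing wild-type (WT) mouse embryo fibroblasts (MEFs), which had been isolated at E12.5 and grown in medium with 20% FBS. MEFs are a mixed primary culture of the mesenchymal cells of the embryo. There were 3 clones with 1 library each and a single condition, so the questions were which of these genes MEFs transcribed, at what level, and how far the clones differed. The sources used here do not say whether the clones came from separate embryos, so the p-values below compare these libraries, and the spread they measure may be technical.

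These genes encode DNA-binding proteins that give cells of the embryo a position and a fate. Most carry a homeodomain, with the Prrx, Alx and Pitx proteins in its paired-like class, Pax proteins carry a paired domain, and the Tbx proteins bind DNA through a T-box. Mesenchyme of the limb, body wall, face and heart is patterned by different combinations of them, and cultured fibroblasts are known to retain part of the code of the place they came from. Meis and Pbx proteins differ in role from the rest, since they act broadly as partners of Hox and other homeodomain proteins.

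Total counts were 25261357, 22594316 and 24791198 in clones 1, 2 and 3. Levels are given as counts per 1000000 counts (CPM) with library sizes scaled by TMM, and 1 count equals 0.0402, 0.0443 and 0.0396 CPM in the respective clones. The fibroblast markers Col1a1, Col1a2, Col3a1, Pdgfra, Pdgfrb and Thy1 were all at or above 1 CPM in every clone. All 6 differed between clones by the chi-square test described below, against 62.2% of all genes tested. Of these, 4 were highest in clone 1 and 2 in clone 2. Pdgfra was at least 2-fold apart, at 11.75, 27.27 and 16.79 CPM in clones 1, 2 and 3. Markers of other cells and of proliferation also differed between clones. All 8 macrophage markers, Csf1r, Ptprc, Cd68, Lyz2, C1qa, C1qb, Tyrobp and Mpeg1, were highest in clone 2, summing to 316.3, 1451 and 255.4 CPM in clones 1, 2 and 3, with none at 0. All 6 proliferation markers (Mki67, Top2a, Cdk1, Ccnb1, Plk1 and Aurkb) were highest in clone 2 too, summing to 367.8, 723.0 and 609.4 CPM, with clone 1 the farthest from the others. The myogenic markers that could be tested (3 of 7) and the epithelial ones (Krt8 and Krt18, 2 of 6) were highest in clone 3. The list sums were 72.0, 31.2 and 100.4 CPM and 3.42, 3.59 and 7.09 CPM. Des made up most of the first sum, at 71.56, 31.09 and 96.53 CPM, and Krt18 most of the second, at 2.78, 2.97 and 5.31 CPM. Epcam, an epithelial marker too low to test, was highest in clone 1, with 5, 1 and 3 counts. The part of any of these markers in the differences between clones given below was not tested. In bulk RNA, fewer cells of a type and less RNA per cell cannot be told apart.

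RefSeq promoter windows (GRCm38.p6) could be matched to 47 of the 70 genes. Of these, windows were chosen for the most abundant family (Prrx1 and Prrx2) and T-box genes at a low and a middle level (Tbx4 and Tbx18). Members of 2 gene pairs lying within 1 Mb and with the same highest clone (Irx2 and Dlx2) were added. The 250 bases before the RefSeq start are shown for these 6 genes. They lie at chr1:163313651-163313900 (Prrx1, minus strand), chr2:30845117-30845366 (Prrx2, plus), chr13:72628570-72628819 (Irx2, plus), chr2:71546755-71547004 (Dlx2, minus), chr11:85896515-85896764 (Tbx4, plus) and chr9:87731261-87731510 (Tbx18, minus). Each is written 5′ to 3′ on the strand of the gene, and capitals mark matches, on either strand, to the GC box (GGGCGG), the CCAAT box (CCAAT) or the TATA box (TATAAA).
Prrx1: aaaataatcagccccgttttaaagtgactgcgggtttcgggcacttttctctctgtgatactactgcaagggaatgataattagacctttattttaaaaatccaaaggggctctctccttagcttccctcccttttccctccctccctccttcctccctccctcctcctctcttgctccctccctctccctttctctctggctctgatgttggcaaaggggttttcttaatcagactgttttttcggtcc
Prrx2: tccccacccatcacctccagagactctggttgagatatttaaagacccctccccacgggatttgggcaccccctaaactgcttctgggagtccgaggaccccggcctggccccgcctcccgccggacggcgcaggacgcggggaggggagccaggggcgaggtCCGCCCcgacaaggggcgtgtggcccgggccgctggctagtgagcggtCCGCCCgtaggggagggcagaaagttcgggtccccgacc
Irx2: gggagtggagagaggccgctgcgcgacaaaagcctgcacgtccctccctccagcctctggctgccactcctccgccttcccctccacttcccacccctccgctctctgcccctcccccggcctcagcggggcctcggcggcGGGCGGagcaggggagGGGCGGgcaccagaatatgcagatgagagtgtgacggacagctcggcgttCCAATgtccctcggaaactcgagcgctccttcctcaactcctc
Dlx2: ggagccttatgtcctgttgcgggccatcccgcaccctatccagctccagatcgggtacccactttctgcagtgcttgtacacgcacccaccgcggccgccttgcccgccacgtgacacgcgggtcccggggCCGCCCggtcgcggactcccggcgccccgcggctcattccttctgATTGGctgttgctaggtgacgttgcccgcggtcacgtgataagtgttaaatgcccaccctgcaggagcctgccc
Tbx4: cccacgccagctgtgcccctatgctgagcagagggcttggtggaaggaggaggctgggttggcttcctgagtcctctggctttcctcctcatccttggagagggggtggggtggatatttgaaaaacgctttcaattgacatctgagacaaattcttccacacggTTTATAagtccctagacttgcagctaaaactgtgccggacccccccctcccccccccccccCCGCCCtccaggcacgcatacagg
Tbx18: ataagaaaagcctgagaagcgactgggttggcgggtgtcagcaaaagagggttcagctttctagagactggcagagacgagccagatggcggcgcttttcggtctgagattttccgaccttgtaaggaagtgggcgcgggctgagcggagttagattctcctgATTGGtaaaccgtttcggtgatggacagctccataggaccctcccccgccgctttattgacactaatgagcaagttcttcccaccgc

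The windows differed in base composition. Those of Prrx2 and Tbx4 lie inside the gene, unlike the others, since these genes start upstream in GENCODE M21, at chr2:30834972 and chr11:85886422. Contrasts with these windows therefore compare unlike positions. Prrx1 held 4 CpG dinucleotides at 47.6% G and C and had none of the 3 motifs, whereas Prrx2 held 21 CpG at 70.0% with 2 GC boxes. Irx2 held 19 CpG, 2 GC boxes and a CCAAT box, and Dlx2 held 24 CpG with 1 match to each of these motifs. Tbx4, with 6 CpG, had a TATA box and a GC box, and Tbx18 had 15 CpG and a CCAAT box. In all, the 47 genes had 58 windows, and their median was 15.0 CpG per window (quartiles 7.75 to 20.75), against 6.0 (2.0 to 16) over the 32851 windows of the genome. A GC box stood in 60.3% of them against 32.7% of all windows, a CCAAT box in 41.4% against 33.8%, and a TATA box in 8.62% against 12.4%. TAATTA, the core bound by many homeodomains, was present in 6.9% and in 4.84% of all windows, TGACAG, a Meis motif, in 13.8% and 15.9%, and AGGTGTGA, the T-box half-site, in 0.0% and 1.12%. Windows of genes that MEFs expressed and of genes they did not had like shares of GC boxes (61.5% of 26 and 59.4% of 32 windows) and like medians of CpG (14.5 and 15.0). A CCAAT box was found in 53.8% of the windows of expressed genes and in 31.2% of the others. These are matches of letters only.

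Of the 70 genes, 35 were expressed, defined as at least 1 CPM in every clone. This share was close to the background, since 52.2% of all genes in the table passed the same threshold. No read was counted in any clone for 14 of them, against 25.2% of all genes, and 24, including those 14, had at most 3 counts in every clone. The depth allows a gene without counts a level of up to 3 counts, or 0.121, 0.133 and 0.119 CPM in clones 1, 2 and 3. Summed over all 70 genes the level was 674.3, 751.0 and 703.3 CPM, or 709.5 ± 38.8 (SD, n = 3). The expressed factors were less abundant than the typical expressed gene. Their median was 8.82 CPM, or 2.40 CPM per kb of annotated exon, against 25.7 CPM and 5.49 CPM per kb over the expressed genes.

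**Figure D1:**
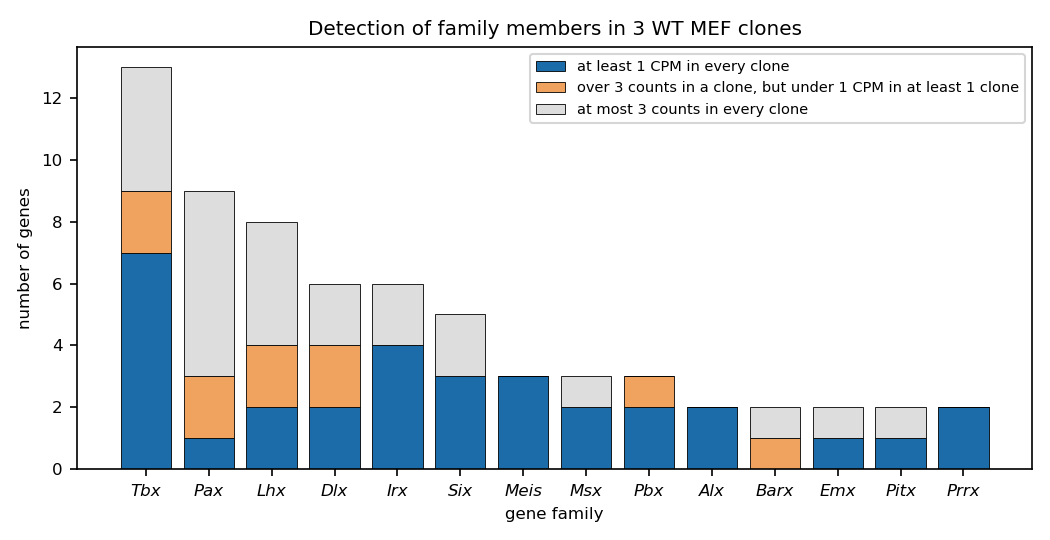
Number of genes of each family (y axis, 66 of the 70 genes) by detection in the 3 WT MEF clones, with families on the x axis and colours for the level reached. Meis and Prrx had every member at 1 CPM or more in every clone, while 6 of 9 Pax genes had at most 3 counts in every clone.

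Families ranged from fully to barely transcribed. All 3 Meis and both Prrx genes were expressed, as were 4 of 6 Irx, 7 of 13 Tbx, 2 of 3 Msx, 2 of 6 Dlx, 2 of 8 Lhx, 1 of 2 Emx and 1 of 9 Pax genes. Neither Barx gene was. Per kb of exon, the Prrx pair alone made up 33.6% of the summed level of all 70 genes. The Tbx genes made up 18.2%, the Irx genes 10.98% and the Meis genes 8.68%.

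Prrx1 and Prrx2 encode paired-related homeodomain proteins that mark limb and facial mesenchyme. Prrx2 had 1293, 1733 and 1178 counts and Prrx1 had 4474, 5356 and 5276. Both were highest in clone 2, and Prrx1 was lowest in clone 1 but Prrx2 in clone 3. Prrx2 was the most abundant of the 70 genes per kb of exon at 29.8 ± 8.22 CPM per kb (SD, n = 3), and 1361 of the 21123 genes with an annotated length were above it. Prrx1 came next at 18.9 ± 2.60 CPM per kb, with 2135 genes above it. This order rests on the length used. Prrx1 has 11066 bp of annotated exon, more than the 4952 nt of its longest coding transcript, and Prrx2 has 1961 bp and 1441 nt. The share of Prrx1 in the pair was 39.2% ± 4.55 per kb of exon but 51.4% per kb of the longest coding transcript, where the levels were 42.2 CPM per kb for Prrx1 and 40.6 for Prrx2.

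**Figure D2:**
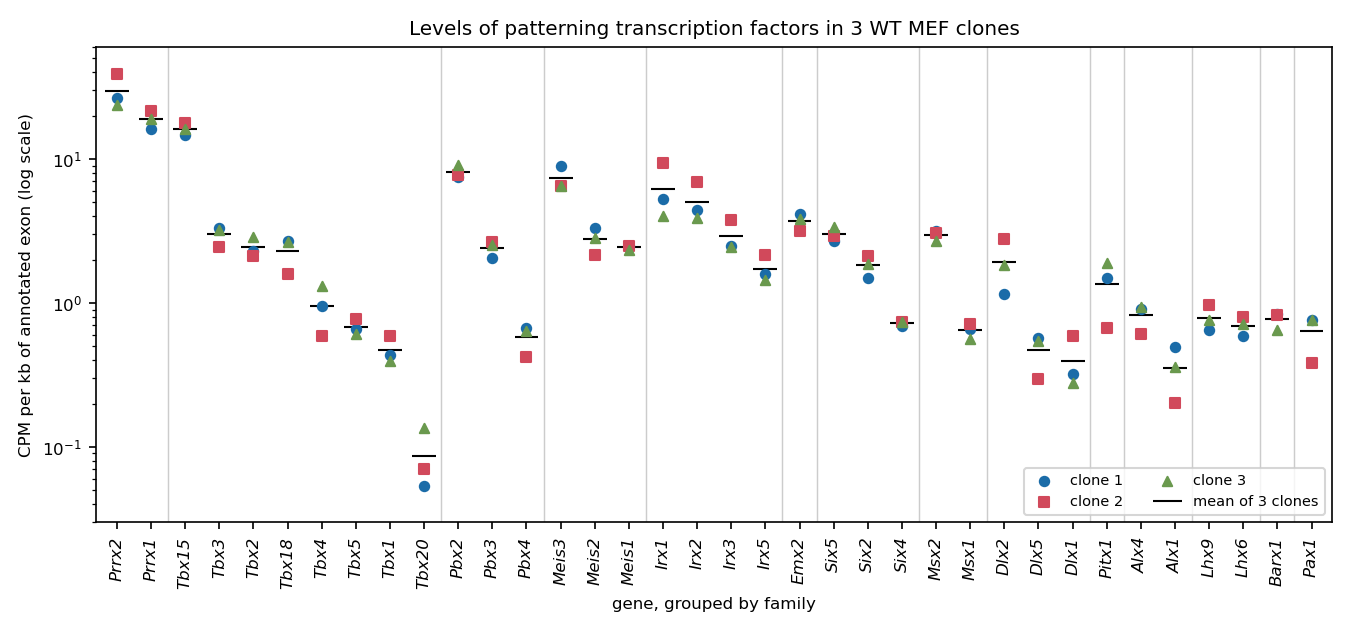
CPM per kb of annotated exon (y axis, log scale) for 36 genes whose mean reached 1 CPM, grouped by family along the x axis; points are clones and bars are means. Prrx2, Prrx1 and Tbx15 led, and Tbx20 was lowest.

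Among the T-box genes, Tbx15, which acts in skeletal and dermal mesenchyme, stood far above the rest. It had 1362, 1505 and 1518 counts, with similar values in all clones, and a level of 16.2 ± 1.60 CPM per kb (SD, n = 3), which was 61.3% ± 5.98 of the T-box sum. Tbx3, a repressor with roles in limb and mammary development, was next with 548, 365 and 539 counts and 2.998 ± 0.483 CPM per kb. Its neighbour Tbx5, the forelimb and heart factor, lies 148 kb away on chromosome 5 and had 77, 81 and 72 counts. The spread of Tbx5 did not pass the test described below. The related pair on chromosome 11 lies 44.5 kb apart: Tbx2, a repressor like Tbx3, had 208, 172 and 264 counts, and Tbx4, the hindlimb factor, had 81, 45 and 113. Both members of this pair were highest in clone 3 and lowest in clone 2. Tbx4 reached 0.954 ± 0.364 and Tbx5 0.680 ± 0.081 CPM per kb, so transcripts of both limb-type factors were present in each clone. Tbx18, which marks somite and urogenital mesenchyme, was at 2.30 ± 0.627 CPM per kb with 314, 168 and 316 counts, lowest in clone 2. Since 20.6% of its exon sequence is overlapped by the antisense gene D030062O11Rik and no strand setting is stated, reads from the overlapped part cannot be told apart. Tbx1, a pharyngeal arch factor, had 38, 47 and 35 counts. Tbx20, a heart factor, had 16, 19 and 41, and Tbx6, of the presomitic mesoderm, had 20, 7 and 10. Tbx10 had 1 count in clone 1, and Tbx19 (pituitary), Tbx21 (T helper lymphocytes) and Tbx22 (palate) had none in any clone.

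The Pbx and Meis genes encode homeodomain proteins of the TALE class. Pbx2 had 678, 636 and 830 counts, highest in clone 3, and Pbx3 had 312, 364 and 387. Per kb of exon the levels were 8.09 ± 0.821 CPM per kb (SD, n = 3) for Pbx2, 2.40 ± 0.307 for Pbx3 and 0.578 ± 0.138 for Pbx4. Pbx2 shares 6.24% of its exon sequence with Gpsm3 on the same strand. Meis3 had 707, 468 and 524 counts, highest in clone 1, and Meis2 had 990, 588 and 864, lowest in clone 2. Meis1, at 649, 593 and 625 counts, was among the most even of the factors. Their levels were 7.35 ± 1.40 CPM per kb for Meis3, 2.77 ± 0.575 for Meis2 and 2.44 ± 0.081 for Meis1, and per kb of the longest coding transcript they lay closer, at 13.5, 11.8 and 7.69. The further TALE genes Pknox1, Pknox2, Tgif1 and Tgif2 were all expressed. Tgif1 had 2143, 1629 and 1714 counts, and 2 of these 4 genes differed between clones by the chi-square test described below, against 62.2% of all genes tested.

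The Irx genes, Iroquois factors of limb, heart and neural patterning, lie in 2 clusters of 3 and showed the same arrangement in both. On chromosome 13, Irx1 and Irx2 were transcribed and Irx4 had no count. On chromosome 8, Irx3 and Irx5 were transcribed and Irx6 had no count. Irx1 had 342, 551 and 268 counts and Irx2, 665 kb away, had 359, 512 and 321. In both, clone 2 was highest and clone 3 lowest. Irx3 had 170, 235 and 172 counts and Irx5, 556 kb from it, had 123, 151 and 114. Again clone 2 was highest, and in CPM clone 3 was lowest in all 4 genes. Their levels were 6.21 ± 2.77, 5.06 ± 1.63, 2.91 ± 0.752 and 1.72 ± 0.369 CPM per kb (SD, n = 3) for Irx1, Irx2, Irx3 and Irx5. Irx1 was above Irx2 per kb of annotated exon in every clone, but this rests on the length. In CPM, Irx2 was above Irx1 in clones 1 and 3, at 14.45 and 12.71 against 13.77 and 10.61. Summed over the family, clones 1, 2 and 3 had 40.0, 64.3 and 34.6 CPM.

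The sine oculis relatives encode homeodomain proteins that act with Eya and Dach proteins. Six5 had 202, 197 and 256 counts and 2.99 ± 0.342 CPM per kb (SD, n = 3). Six4, a regulator of muscle and sensory organ precursors, had 187, 181 and 202 counts and was as even as Meis1. Six2, a factor of nephron progenitors and facial mesenchyme, had 79, 101 and 99 counts. The eye and forebrain factors were not detected above 3 counts: Six3, 55.0 kb from Six2, had no count, and Six6, 154.7 kb from Six4, had 1 in clone 1. Of the 6 cofactor genes Eya1 to Eya4, Dach1 and Dach2, 4 were expressed, led by Eya3 with 1030, 937 and 1005 counts.

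Pitx1 is the hindlimb factor upstream of Tbx4. It had 98, 40 and 127 counts, so clone 2 was far below the other 2 clones. Pitx3, a factor of lens and dopaminergic neurons, had no count. The level of Pitx1 was 1.35 ± 0.624 CPM per kb (SD, n = 3). Antisense exons of Gm47071 overlap 6.21% of the Pitx1 exon sequence.

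The Dlx genes come in convergent pairs and pattern the pharyngeal arches, limb ectoderm and forebrain. Only the pair Dlx1 and Dlx2 was expressed in every clone. Dlx2 had 82, 178 and 133 counts, and Dlx1, 9.43 kb away on chromosome 2, had 43, 72 and 38. Both were highest in clone 2, and Dlx2 was lowest in clone 1 but Dlx1 in clone 3. Dlx1as, antisense to Dlx1, overlaps 6.21% of its exon sequence. Dlx2 took 65.2% ± 11.4 of the family sum per kb. Dlx5 had 32, 15 and 31 counts and its partner Dlx6 had 8, 2 and 3, whereas the pair on chromosome 11, Dlx3 and Dlx4, had 1 count in all, in clone 1.

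Msx1 and Msx2 are homeodomain repressors known as targets of BMP signalling. Msx2 had 256, 226 and 222 counts and Msx1 had 51, 50 and 44, so neither varied much, and Msx2 took 82.1% ± 0.923 of the family sum per kb (SD, n = 3). Msx3, which is restricted to the neural tube, had no count. Alx1 and Alx4 are factors of facial and limb mesenchyme. Alx4 had 159, 97 and 168 counts and Alx1 had 71, 26 and 52. Clone 2 was thus lowest for both. Barx1, a factor of stomach and facial mesenchyme, had 29, 26 and 23 counts, and Barx2 had 1 in clone 2.

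The Lhx, Emx and Pax families include many regulators of the nervous system, eye, kidney and blood. Emx2, a factor of cortex, urogenital tract and scapula, had 311, 215 and 292 counts and 3.73 ± 0.507 CPM per kb of exon (SD, n = 3), or 3.84 per kb of the longest coding transcript. The antisense gene Emx2os, a row of its own in the table, overlaps 8.79% of its exon sequence. Emx1, a cortical factor, had no count. Lhx9, a factor of gonad and limb, had 153, 206 and 182 counts, and Lhx6, known from interneurons and oral mesenchyme, had 70, 86 and 86. Their levels were 0.790 ± 0.159 and 0.696 ± 0.104 CPM per kb of exon, but 3.63 and 1.0 per kb of the longest coding transcript, so their distance rests on the length used. Lhx8 had 3, 9 and 12 counts and Lhx2 had 9, 2 and 9. Lhx1, Lhx3, Lhx4 and Lhx5 had between 0 and 2 counts in each clone. Of the LIM cofactors, which bind Lhx proteins, Ldb1 was abundant with 5144, 3412 and 4297 counts.

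Pax1, of the sclerotome that forms the vertebrae, was the one Pax gene expressed in every clone. It had 85, 39 and 87 counts, lowest in clone 2, and took 76.5% ± 6.12 of the family sum per kb (SD, n = 3). Pax9, its close relative, had 20, 12 and 17 counts. The muscle progenitor factor Pax3 had 8, 7 and 1 counts and Pax7 had 0, 1 and 1. Among the myogenic markers, Myf5 and Myf6 had no count and Myod1 had 0, 1 and 4, while Des had 1778, 701 and 2438, Myh3 6, 0 and 47, Actc1 4, 1 and 38 and Myog 1, 0 and 10. The 3 of these markers that could be tested were at least 2-fold apart and highest in clone 3. Pax2 and Pax8 (kidney), Pax4 (pancreas), Pax5 (B lymphocytes) and Pax6 (eye and brain) had between 0 and 2 counts in each clone. Of 9 neural markers, 3 were expressed in every clone, namely Nes with 21741, 12709 and 20744 counts, Tubb3 with 1802, 1796 and 1692 and Map2 with 176, 122 and 171, while Sox1 and Neurod1 had no count.

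In the order of levels per kb of annotated exon, most neighbours could not be separated. Of the 38 neighbouring pairs among the 39 genes whose mean reached 1 CPM, 9 kept their order in every clone. In 3 pairs the lowest clone of the upper gene was above the highest clone of the lower one: Prrx2 above Prrx1, Tbx15 above Pbx2 and Alx1 above Tbx20. Pbx2, Meis3, Irx1 and Irx2, the fourth to the seventh in this order, lay between 5.06 and 8.09 CPM per kb. The order moved with the length used. Per kb of the longest coding transcript, Prrx1 ranked 1 and Prrx2 ranked 2. Pbx2, Meis3, Irx1 and Irx2 then ranked 6, 4, 9 and 10, and Meis2 moved from rank 15 to rank 5.

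Among the 66 genes reported by name, 21 had another of them within 1 Mb, forming 14 pairs. Both genes were expressed in 5 pairs (Tbx2 and Tbx4, Tbx3 and Tbx5, Irx1 and Irx2, Irx3 and Irx5, Dlx1 and Dlx2). In 7 pairs 1 gene was expressed, with Irx4, Irx6, Six3, Six6 or Lhx5 as the other gene, and in 2 pairs neither was, namely Dlx3 with Dlx4 and Dlx6 with Dlx5.

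The clones were then compared gene by gene. A Pearson chi-square test of the 3 counts, which measures differences beyond counting noise, could be run on 42 of the 70 genes with a mean of at least 10 counts, as on 57.9% of all genes. At a threshold of 0.05 after Benjamini-Hochberg adjustment over all genes tested, 28 of the 42 differed between clones, against 62.2% of all genes tested. The 14 that did not pass were Barx1, Dlx5, Lhx6, Meis1, Msx1, Msx2, Pax9, Pbx4, Six2, Six4, Six5, Tbx1, Tbx5 and Tbx6. A difference of at least 2-fold on CPM + 1 between the highest and lowest clone was found for 4 of the 42 genes, against 4.8% of all genes tested. Among them were Irx1 (2.19-fold, adjusted p = 4.70e-33), Pitx1 (2.17-fold, 7.69e-08) and Dlx2 (2.07-fold, 4.35e-10). With 0.25 CPM added in place of 1, 8 genes passed, Alx1, Tbx4 and Tbx20 among them, against 7.97% of all genes. Tbx15 and Prrx1, with far more counts, differed by 1.21-fold and 1.32-fold and passed the test with adjusted p-values of 2.93e-06 and 2.71e-40, so the test calls small differences in abundant genes.

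**Figure D3:**
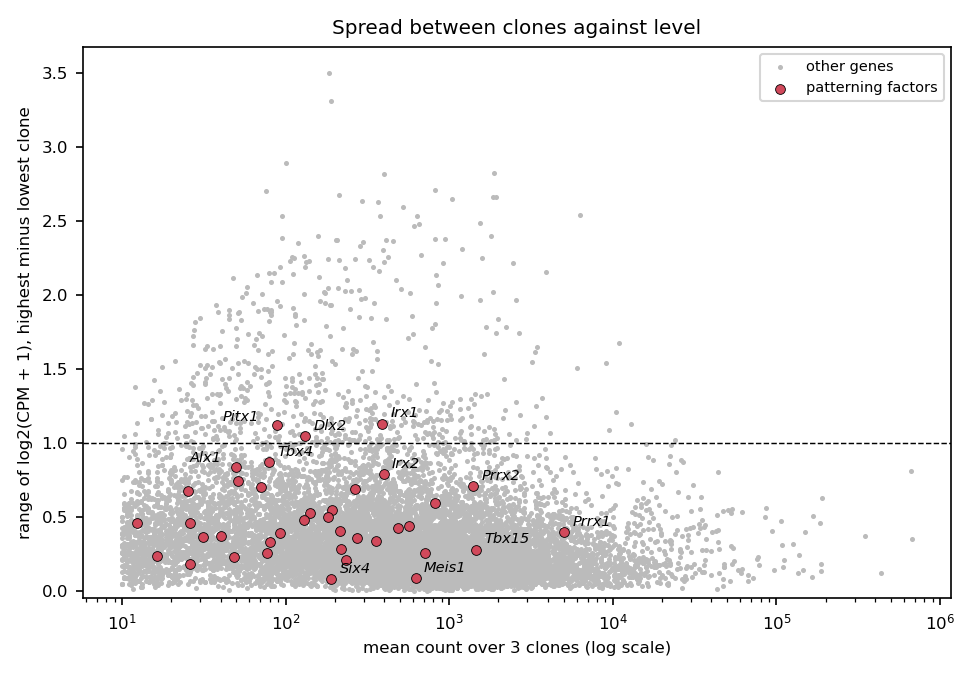
Range of log2(CPM + 1) between the highest and lowest clone (y axis) against the mean count (x axis, log scale) for 12604 genes tested, with 38 patterning factors in red. The dashed line is a 2-fold difference, and Irx1, Pitx1 and Dlx2 lie above it.

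Set against genes of like abundance, the median range between clones was close for the least abundant patterning factors and larger for those with mean counts from 50 up. The median range of log2(CPM + 1) over the 42 genes was 0.46, against 0.28 over all genes tested. For mean counts of 10 to 50 it was 0.41 over 10 factors and 0.40 over all genes, for 50 to 200 it was 0.54 over 14 factors and 0.39, for 200 to 1000 it was 0.42 over 14 factors and 0.27, and from 1000 up it was 0.46 over 4 factors and 0.22. Not all factors varied. Six4 and Meis1 each differed by 1.06-fold between their highest and lowest clone.

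Most of the differences involved clone 2. Among the 42 genes, 25 passed the chi-square test with clone 2 as the highest or the lowest, against 44.6% of all genes tested. In 13 of them clone 2 was highest (23.6% of all genes) and in 12 it was lowest (21.1% of all genes). Clone 1 was the highest or the lowest in 16 genes and clone 3 in 15, against 50.2% and 29.5% of all genes. The genes highest in clone 2 included both Prrx genes, all 4 transcribed Irx genes, Dlx1, Dlx2, Lhx9, Pbx3 and Tbx15, and those lowest in clone 2 included Pitx1, Tbx2, Tbx3, Tbx4, Tbx18, Meis2, Alx1, Alx4, Pax1 and Emx2. Without clone 2, 13 genes differed between clones 1 and 3, against 45.1% of all genes, and none of them reached 2-fold, against 0.333% of all genes. They included Dlx2, Irx1, Meis2, Meis3, Pbx2, Pbx3, Prrx1, Prrx2, Six5, Tbx2, Tbx15 and Tbx20. Pitx1, Irx2, Irx3, Irx5, Tbx4 and Tbx18 did not pass between clones 1 and 3. With fewer counts the test is less able to call a difference, so this does not show that the 2 clones were alike. Tbx4 had 3.26 and 4.47 CPM in clones 1 and 3, and Pitx1 had 3.94 and 5.03. Prrx1, with far more counts, passed at 180.1 and 208.9 CPM. Without clone 1, 22 genes differed, and without clone 3, 27 did, against 32.1% and 53.0% of all genes. In clone 2 all 8 macrophage and all 6 proliferation markers were also highest, as given above. The cartilage list (Col2a1, Acan, Sox9, Col9a1 and Matn1) summed to 794.1, 547.7 and 775.2 CPM in clones 1, 2 and 3. The neural list summed to 955.2, 649.3 and 896.1 CPM, so both sums were lowest in clone 2. Most of each sum came from 1 gene. Col2a1 had 735.1, 486.9 and 724.4 CPM and Nes had 875.1, 563.6 and 821.3 CPM in clones 1, 2 and 3. Of the cartilage markers that passed the chi-square test, 2 were highest in clone 1 and 2 in clone 2 (Acan and Sox9). For the neural ones it was 1 and 1, with Tubb3 highest in clone 2. The part of any of these lists was not tested.

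**Figure D4:**
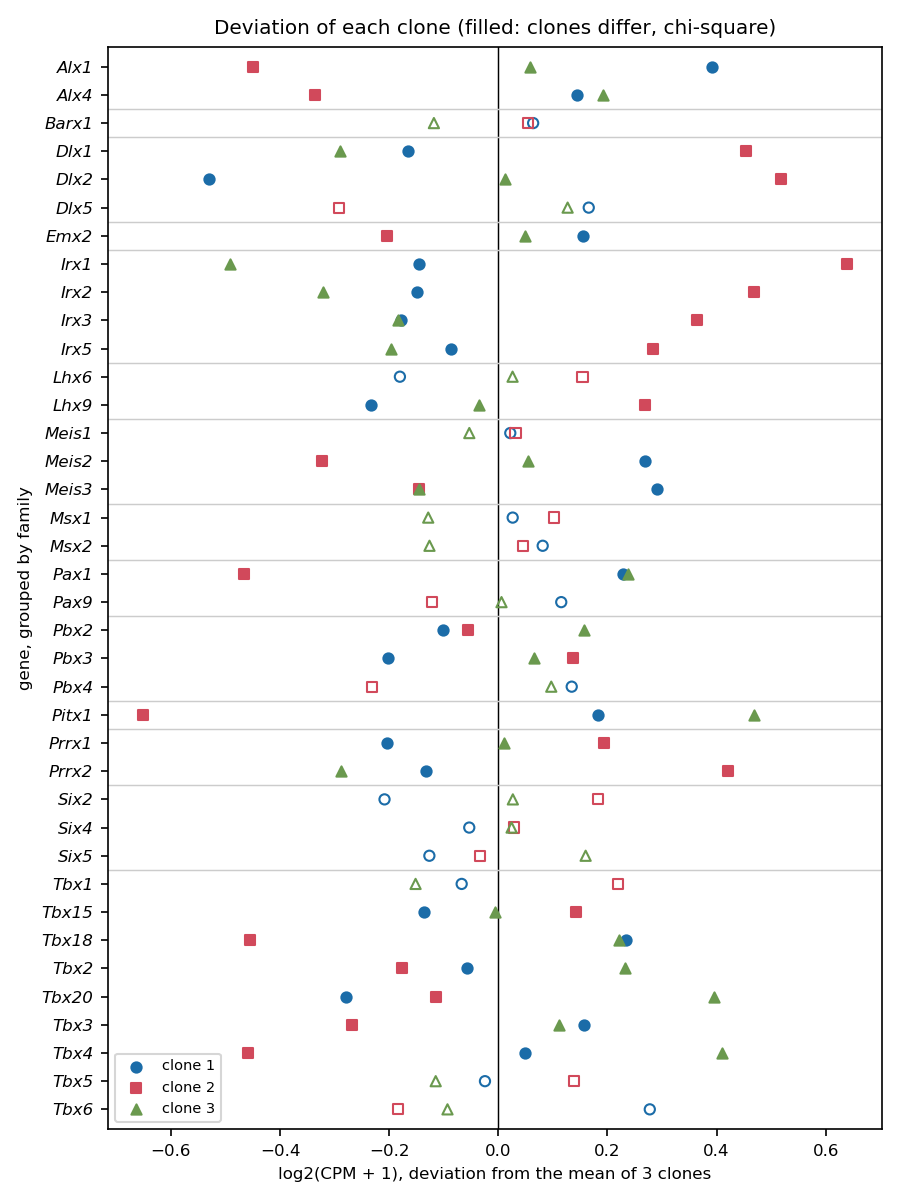
Difference between log2(CPM + 1) of each clone and the average over clones (x axis) for 38 genes tested, by family (y axis); filled symbols mark the 24 that passed the chi-square test. Clone 2 (squares) lies to the right for Irx1, Irx2, Irx3 and Irx5 and to the left for Pitx1 and Tbx18.

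Because the chi-square test takes counting noise as its only error, each clone was also compared with the other 2 by edgeR's quasi-likelihood test, which takes the spread between clones as the error and assumes that the lone clone varies like the others. No patterning factor had an adjusted p-value under 0.05 in any clone, where 0.0%, 2.52% and 0.0% of all genes passed in clones 1, 2 and 3. DESeq2's Wald test called none either, where it called 1.84%, 1.71% and 0.0% of all genes. At an unadjusted p under 0.05 the edgeR test named 15 factors in clone 2, against 9.27% of all genes, 1 in clone 1 (Meis3, higher), against 13.7%, and none in clone 3, against 0.468%. Of the 15, 7 were higher in clone 2 (5.9% of all genes), among them Irx1, Irx2, Irx3, Prrx2, Dlx1 and Dlx2, and 8 were lower (3.37% of all genes), among them Pitx1, Tbx4, Tbx18, Alx1, Pax1 and Meis2. Irx1 had a log2 difference of 1.003 between clone 2 and the others, with an edgeR adjusted p of 0.0535 and a range of 0.0254 to 0.595 over the alternatives. Of the settings tried, it passed the threshold with libraries scaled to total counts alone. For Pitx1 the log2 difference was -1.34 and the edgeR adjusted p 0.143, with a range of 0.0946 to 0.638. Over the 42 genes, the median log2 difference of clone 2 from the others was 0.05, against -0.01 over all genes tested.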

How the data were processed

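The authors isolated polyA+ RNA from 3 clones of WT MEFs and, per the methods of the study and the submitters' processing notes, aligned single-end reads with TopHat2 (2.0.0), SAMtools (0.1.16) and Bowtie (0.12.7) and counted reads per gene with HTSeq. The deposited values are raw counts, 1 column per clone. The methods name mm10 and the processing notes mm9 as the build, and the HTSeq version, annotation and strand setting are not given in the sources used here. Reads of overlapping or antisense genes may therefore be split or misassigned.

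CPM were computed with TMM factors of 0.984, 0.998 and 1.02 (edgeR 4.0.16, R 4.3.3). The floor of 3 counts covers counting error only. Lengths and positions were taken from GENCODE M21 (GRCm38) by symbol, which matched 21123 of 21782 genes and all 70 factors. The chi-square test (2 degrees of freedom, against scaled library sizes) and edgeR's quasi-likelihood test, with 1 residual degree of freedom per gene, were run on 12608 genes with a mean of at least 10 counts and tested on simulated data. Alternatives were DESeq2 1.42.0 (size factors, Wald test), total counts, other filters, pseudocounts and lengths, and leaving out each clone. Of the 70 factors, 66 are named and 4 are not reported here by name, with counts per clone for the leading, neighbouring and 2-fold different members of each family. The members and lists were chosen with earlier results of these data known. Clones differed pairwise beyond counting noise at 32.1% to 53.0% of genes, so each was counted as 1 sample. Python 3.11.15, numpy 2.4.6, pandas 2.3.3 and scipy 1.17.1 were used.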

Additional observations from a re-analysis of the deposited data

How the results depend on the processing

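The number of expressed factors lay between 28 and 41 under other thresholds, scalings and clones left out. The number differing between clones by the chi-square test stayed at 28 or 29 under other scalings, filters and a likelihood-ratio test, and ranged from 13 (without clone 2) to 27 with a clone left out. The number at least 2-fold apart was 3 without clone 1, 0 without clone 2 and 2 without clone 3, against 2.65%, 0.333% and 4.27% of all genes tested. With 0.25 CPM added it was 8, against 7.97%. In clone 2, the calls of edgeR's quasi-likelihood test depended on the scaling. Irx1 was among the factors that passed with libraries scaled to total counts, and none passed otherwise. With a clone left out this test could not be run, since no residual degree of freedom remained. DESeq2's Wald test gave an adjusted p for 11 of the 42 factors in clone 1 and 41 in clone 2, so its count of 0 in clone 1 says little. Levels per kb depended on the length: Prrx1 had 42.2 CPM per kb of its longest coding transcript, and its share of the Prrx pair was 51.4% per kb of transcript and 78.3% of raw counts. The length also moved the level of 23 other factors by more than their spread. The order of Prrx1 and Prrx2 turned with the length used. At these depths factors under 3 counts cannot be told from absent ones. No paired analysis was possible because the samples form 1 group.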

Other observations

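Other regulators of the same tissues and the partners of these factors were present as well. Of 32 such genes 18 were expressed, near the 52.2% of all genes, and 12 of the 24 tested differed between clones by the chi-square test, where 62.2% of all genes did. Of the 12 that differed, 5 were highest in clone 1, 5 in clone 2 and 2 in clone 3. Of the 12 further homeobox and mesenchyme regulators, 6 were expressed and 8 were tested. Of these 8, 4 passed the test with clone 2 highest, against 23.6% of all genes tested. Among these, Twist2, a dermal and mesenchymal factor, had 836, 1369 and 873 counts in clones 1, 2 and 3, and Shox2, of the proximal limb, had 276, 359 and 304. Twist1 had 660, 658 and 607 counts, and was highest in clone 2 only in CPM, at 26.56, 29.18 and 24.03. Lmx1b, the dorsal limb factor, had 19, 33 and 18 counts. Gli3, En1 and Hand2, which act in limb patterning, were expressed with 1169, 972 and 1213, with 268, 249 and 291 and with 91, 73 and 76 counts. Lmo2, a LIM cofactor also known from blood cells, was the one partner at least 2-fold apart, with 14, 53 and 24 counts. It was highest in clone 2, as were the macrophage markers, and any link between them was not tested. The T-box genes named otherwise were low, with T at 3, 0 and 1 counts and Eomes at 6, 10 and 2, except Mga at 1252, 1094 and 1270, which did not pass the test.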
